A study of Mus musculus with 4 samples.

Results

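The SoxC factors Sox4, Sox11 and Sox12 were followed through every probe set that the platform annotation gives to them. These are 3 of 18193 genes with a probe set of their own. They had 17 of the 45101 probe sets on the array, 6 for Sox11, 8 for Sox4 and 3 for Sox12, and no probe set named one of them together with another gene. In the single contrast of the series Sox11 was the member that fell: all 6 of its probe sets were lower in the tumorigenic subline, by 5.23-fold to 56.4-fold. No probe set of Sox4 or Sox12 passed the test in either direction, where 1.58% of all tested probe sets did. The most strongly hybridising Sox4 and Sox12 probe sets had positive differences, of 1.06 and 1.02 on the log2 scale. The Sox12 probe sets 1439754_at and 1456882_at, the latter not tested, had differences of -0.04 and -0.08. No 95% confidence interval of a tested Sox4 or Sox12 probe set reached below -0.51.

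SoxC proteins are transcription factors that bind DNA through a high mobility group (HMG) box and activate genes through a conserved domain at their C-terminal end. They are encoded by intronless genes, and in the developing nervous system Sox4 and Sox11 are switched on as progenitors commit to neuronal fate, where they act in part redundantly on genes of early neurons. Sox12 is coexpressed with them in the mouse embryo and is known as the weaker activator of the group. Because the paralogues overlap in use, it matters whether a cell loses one of them or all.

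The cells were p53-/- neural stem cells taken from C57BL/6 telencephalon at embryonic day 14.5, grown as floating spheres with growth factors and forskolin. Both sublines had been electroporated with pCMS-EGFP-HRasL61, which carries GFP and an activated HRas, and with pBabe-neo, kept in 0.5 mg/ml neomycin and sorted for GFP. The tumorigenic subline, named glioma-initiating cell-like or GIC, was measured on 2 arrays, and the nontumorigenic subline, non-GIC, on 2 more. The labels do not say whether a subline is a single clone or whether the replicates are separate cultures. The description of each array opens with a short code that differs between all 4 arrays, and the labels do not explain these codes. The p-values therefore reflect the scatter of these arrays alone, possibly technical, and whatever else separates the sublines cannot be told apart from tumorigenicity. The arrays were alike in overall level, with medians of 6.58 to 6.63 (log2 signal), and Pearson's r over the tested probe sets was 0.977 between the GIC arrays, 0.979 between the non-GIC arrays and 0.925 to 0.957 across sublines. Among the markers of neural stem cells, Sox2 had a signal of 10.20 and 10.59 in GIC and 11.15 and 11.44 in non-GIC. The intermediate filament Vim had 14.61 and 14.59 in GIC and 14.50 and 14.71 in non-GIC. Other progenitor markers did not all stay high: Nes and Fabp7 were lower in GIC, while Cd24a was higher. Prom1 had 4.34 and 4.76 in GIC and 4.67 and 4.56 in non-GIC. In bulk samples such as these, fewer cells of a type and less RNA per cell cannot be told apart.

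The 250 bases upstream of the annotated start of each member are shown because the members did not move together (RefSeq sequences, build GRCm38.p6, all on the minus strand and read 5′ to 3′). They are chr12:27342719-27342968 for Sox11, chr13:28953700-28953949 for Sox4 and chr2:152398047-152398296 for Sox12. Capitals mark matches on either strand to 3 short elements: the CCAAT box, the palindromic E-box spelled CAGCTG, and the octamer of POU factors, spelled ATGCAAAT.
Sox11: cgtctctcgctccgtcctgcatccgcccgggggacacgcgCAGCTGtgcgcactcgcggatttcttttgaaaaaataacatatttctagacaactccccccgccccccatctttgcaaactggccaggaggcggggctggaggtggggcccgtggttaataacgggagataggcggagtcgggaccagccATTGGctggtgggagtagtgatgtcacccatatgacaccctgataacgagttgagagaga
Sox4: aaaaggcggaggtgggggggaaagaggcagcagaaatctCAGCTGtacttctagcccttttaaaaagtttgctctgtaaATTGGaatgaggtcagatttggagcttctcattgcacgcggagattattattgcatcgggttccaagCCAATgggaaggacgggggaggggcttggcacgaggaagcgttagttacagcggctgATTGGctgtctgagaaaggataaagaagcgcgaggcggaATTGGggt
Sox12: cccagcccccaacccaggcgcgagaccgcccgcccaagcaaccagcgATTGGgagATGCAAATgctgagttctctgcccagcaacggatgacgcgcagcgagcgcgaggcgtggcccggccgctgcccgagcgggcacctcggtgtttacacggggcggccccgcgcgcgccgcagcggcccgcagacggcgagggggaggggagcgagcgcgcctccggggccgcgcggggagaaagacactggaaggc
Sox11 had 1 CCAAT match and Sox12 had 1, while Sox4 had 4. The E-box occurred once in Sox11 and once in Sox4 and not in Sox12, and the octamer occurred once in Sox12 alone. Of 32851 mouse promoter windows of the same length, 33.8% held the CCAAT box, 13% the E-box and 1.6% the octamer. A search for the Sox core AACAAT, held by 9.42% of windows, found no match in these 3. Nor did a search for another Sox motif, AACAAAG (5.03% of windows), or for the TATA element spelled TATAAA (12.4%). The Sox12 window had 35 CpG dinucleotides and 74.4% G and C, against 17 and 58% in Sox11 and 11 and 50.8% in Sox4. A match is only a description of these letters, and the motifs were chosen after the windows were seen.

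Sox11, typical of immature neurons and the most potent activator among the SoxC proteins, was first read from 1431225_at, its probe set with the highest mean signal. The GIC arrays had 5.19 and 5.35 and the non-GIC arrays had 10.71 and 10.68 on the log2 scale. Both GIC values lay under 5.97, the level that at least 2 arrays had to exceed for a probe set to be tested, and both non-GIC values lay far above it. The mean was 5.27 ± 0.12 for the GIC arrays, against 10.69 ± 0.02 for the non-GIC arrays (SD, n = 2 each), a difference of -5.43 (SE 0.15, limma adjusted p = 0.00463 over 27576 tested probe sets), or 43.0-fold lower. Its 95% confidence interval ran from -5.81 to -5.05.

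The other 5 Sox11 probe sets also fell, by amounts that differed between them. In 1436790_a_at the GIC arrays had 3.65 and 3.29 and the non-GIC arrays 9.52 and 9.05, a difference of -5.82 (limma adjusted p = 0.00534). Both GIC values were far under the filter level. In 1429372_at the GIC arrays had 3.29 and 3.56 and the non-GIC arrays 8.98 and 8.70, a difference of -5.41. In 1453125_at the values were 4.16 and 3.88 in GIC and 8.56 and 8.32 in non-GIC, a difference of -4.42. The last 2 probe sets fell less. They were 1429051_s_at, with 6.15 and 5.54 in GIC and 9.18 and 9.02 in non-GIC (difference -3.25, limma adjusted p = 0.0178), and 1453002_at, with 6.25 and 6.11 in GIC and 8.85 and 8.28 in non-GIC (difference -2.39, limma adjusted p = 0.0294).

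All 6 Sox11 probe sets were past the threshold and lower in GIC, against 0.613% of all tested probe sets. On every one of them both GIC arrays lay below both non-GIC arrays, as they did on 25.7% of all tested probe sets. The 6 probe sets read the same gene on the same arrays and are not independent, so these shares are no test of the counts. Among them, 1431225_at, 1436790_a_at, 1429372_at and 1453125_at exceeded the filter level only on the 2 non-GIC arrays. They were therefore tested only through those arrays. Without the level filter all 6 still passed. The differences of the 6 probe sets spanned 3.43 on the log2 scale. Over the 2725 genes with at least 3 tested probe sets the median span was 0.26 and the 95th percentile 0.96. The spans of Sox4 (1.46) and Sox12 (1.06, 2 tested probe sets) were also above that percentile. A span can grow with the size of a change, and few of the compared genes changed, so this does not show unusual disagreement for Sox11. All 6 Sox11 probe sets agreed in direction, as did those of 66.5% of these genes. The 2 probe sets with the smallest differences were designed on the same annotated transcript. The GIC means of the 6 probe sets ran from 3.43 to 6.18, and 5 of them lay under the filter level. Near such low signal the fold can be understated, and no detection calls were used, so Sox11 is not called absent in GIC.

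With each array left out in turn, the difference of 1431225_at ran from -5.51 to -5.35. Without non-GIC replicate 1 its limma adjusted p was 0.0511, and no Sox11 probe set and no probe set of the whole table (0 of 27576) passed. Omitting non-GIC replicate 2 left 4 of the 6 Sox11 probe sets past the threshold, and omitting GIC replicate 1 or GIC replicate 2 left 5 each time. An exact permutation test of a single probe set with 2 arrays against 2 cannot go below p = 0.33.

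**Figure D1:**
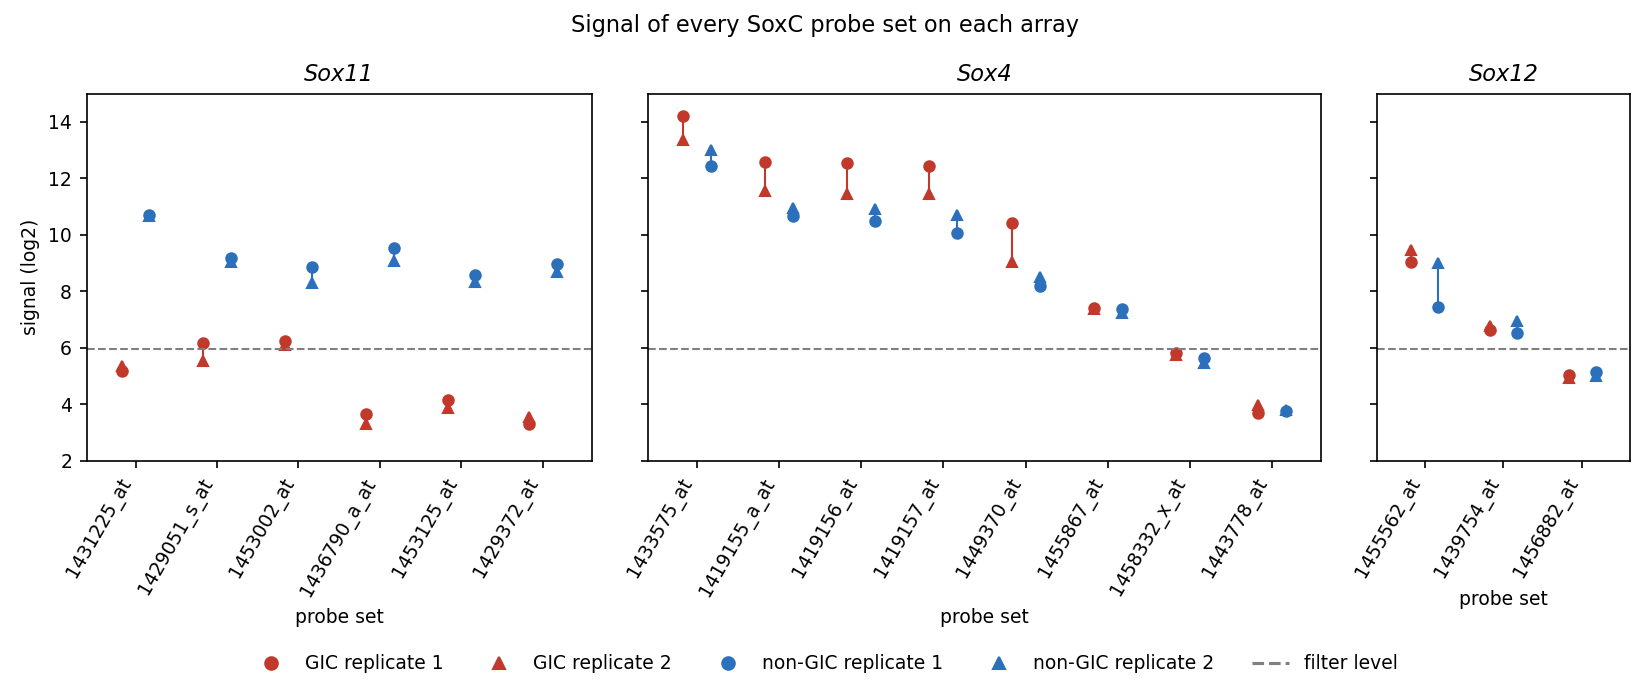
Signal (log2) of each of the 17 SoxC probe sets on the 2 GIC and 2 non-GIC arrays, one panel per gene, with probe sets ordered by mean signal and the filter level of 5.97 as a dashed line. Sox11 values lie between 3.29 and 6.25 in GIC and between 8.28 and 10.71 in non-GIC. The Sox4 and Sox12 differences are smaller, from -0.08 to 1.55. On 7 of the 8 Sox4 probe sets, among them the untested 1458332_x_at, both GIC points lie above both non-GIC points. The groups did not overlap, in either direction, on 49.3% of all tested probe sets.

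Sox4, a paralogue with broad use in progenitor cells and in early neurons, had the highest signal on 1433575_at. This probe set had 14.21 and 13.36 in GIC and 12.45 and 13.00 in non-GIC. The mean was 13.79 ± 0.60 for the GIC arrays, against 12.73 ± 0.39 for the non-GIC arrays (SD, n = 2 each), a difference of 1.06 (SE 0.35, limma adjusted p = 0.238; 95% confidence interval 0.15 to 1.97). The groups did not overlap, and the gap between GIC replicate 2 and non-GIC replicate 2 was smaller than the gap between the GIC arrays.

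A further 4 Sox4 probe sets share one annotated transcript, and their differences lay between 1.27 and 1.55. The largest was that of 1419157_at, with 12.44 and 11.44 in GIC and 10.08 and 10.70 in non-GIC (limma adjusted p = 0.173). The next, 1449370_at, had 10.41 and 9.04 in GIC and 8.18 and 8.51 in non-GIC, a difference of 1.38 (limma adjusted p = 0.259). In 1419156_at the values were 12.54 and 11.45 in GIC and 10.49 and 10.91 in non-GIC, and in 1419155_a_at they were 12.59 and 11.54 in GIC and 10.65 and 10.93 in non-GIC. On all 4, GIC replicate 1 stood highest and GIC replicate 2 came next.

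The remaining 3 Sox4 probe sets showed little. In 1455867_at, which the annotation gives no source transcript, the values were 7.41 and 7.37 in GIC and 7.36 and 7.23 in non-GIC, a difference of 0.09 with a 95% confidence interval from -0.25 to 0.43. The 2 that share another transcript, 1458332_x_at and 1443778_at, stayed under the filter level on all 4 arrays and were not tested. Their differences were 0.24 and 0.03. Of the 6 tested Sox4 probe sets none passed the adjusted threshold, and 5 had an unadjusted limma p under 0.05 (17.2% of all tested probe sets did). The groups did not overlap on any of the 6, which was so for 49.3% of tested probe sets. These probe sets read the same gene on the same 4 arrays and are not independent, so the shares are no test of the counts. Without GIC replicate 2, 2 Sox4 probe sets passed and were higher in GIC, and without any other array none did.

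Sox12, the weaker activator of the group, had no probe set past the threshold, and its 3 probe sets differed in size. In 1455562_at the GIC arrays had 9.02 and 9.46 and the non-GIC arrays had 7.45 and 8.99. Non-GIC replicate 1 stood apart from the other arrays, and non-GIC replicate 2 lay just under GIC replicate 1. The mean was 9.24 ± 0.31 for the GIC arrays, against 8.22 ± 1.09 for the non-GIC arrays (SD, n = 2 each), a difference of 1.02 (SE 0.54, limma adjusted p = 0.42; 95% confidence interval -0.38 to 2.43). Omitting non-GIC replicate 1 moved it to 0.25, and omitting non-GIC replicate 2 moved it to 1.79. In 1439754_at the values were 6.63 and 6.76 in GIC and 6.53 and 6.95 in non-GIC, a difference of -0.04 with a 95% confidence interval from -0.51 to 0.43. The third, 1456882_at, stayed under the filter level with 5.04 and 4.94 in GIC and 5.15 and 4.99 in non-GIC.

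**Figure D2:**
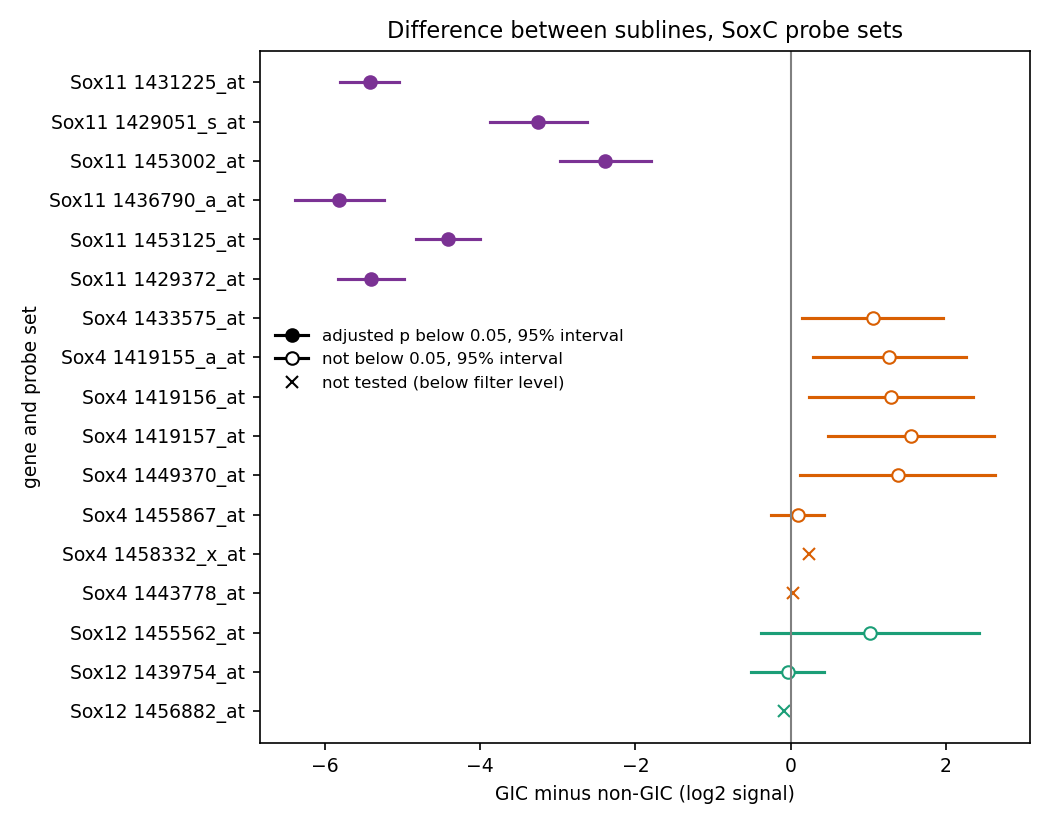
Difference in log2 signal, GIC minus non-GIC, for each SoxC probe set, with 95% confidence intervals from the limma fit for those tested and crosses for the 3 that were not. The 6 Sox11 intervals lie wholly below 0, and the Sox4 and Sox12 points lie between -0.08 and 1.55 with none past the adjusted threshold.

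Whether the change of Sox11 differed from that of its paralogues was asked within each array, by subtracting the signal of one gene's leading probe set from that of another. Only the contrast of these differences between sublines has a meaning, since levels of different probe sets are not comparable. Sox11 minus Sox4 was -9.03 and -8.01 in GIC and -1.74 and -2.32 in non-GIC. The change of Sox11 was thus lower than that of Sox4 by a difference of -6.49 on the log2 scale, with a 95% confidence interval from -7.47 to -5.51. With Sox11 under the filter level in GIC, the size of this difference may be understated. This interval combines the standard errors of both genes and takes their errors as independent.

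Sox11 minus Sox12 was -3.84 and -4.11 in GIC and 3.26 and 1.69 in non-GIC, a difference of -6.45 with a 95% confidence interval from -7.91 to -4.99. The sublines did not overlap in either of these contrasts. On single probe sets that was so for 49.3% of those tested, and no such share was taken for within-array differences. Sox4 minus Sox12 was 5.19 and 3.90 in GIC and 5.00 and 4.01 in non-GIC, and here the sublines overlapped. That difference was 0.04, with a 95% confidence interval from -1.64 to 1.71. Within that interval Sox4 and Sox12 may still differ from each other by up to 3.27-fold.

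The exact two-sided permutation p was 0.333 for both Sox11 contrasts, the smallest that 4 arrays allow, and 1 for Sox4 against Sox12. A limma fit on the within-array differences of all probe sets gave adjusted p = 3.92e-25 for Sox11 against Sox4, 1.2e-10 for Sox11 against Sox12 and 0.97 for Sox4 against Sox12. These 3 values were each adjusted over the 27575 probe sets of their fit, not over the 3 pairs. It called 6.35% of probe sets as changed otherwise than Sox4 and 0.584% as changed otherwise than Sox12. Each of its rows carries the same Sox4 or Sox12 values, so the fit took the spread of one gene for that of every row, and its p-values are far too small. The standard errors of this fit were nonetheless larger than the combined ones. They were 0.58 against 0.38 for Sox11 minus Sox4 and 0.84 against 0.56 for Sox11 minus Sox12. For Sox4 minus Sox12 they were 0.84 against 0.64. The intervals from the combined errors rest on independence of the errors, which was not tested, and may be too narrow. Neither the fit nor the combined errors give a firm width for these intervals.

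**Figure D3:**
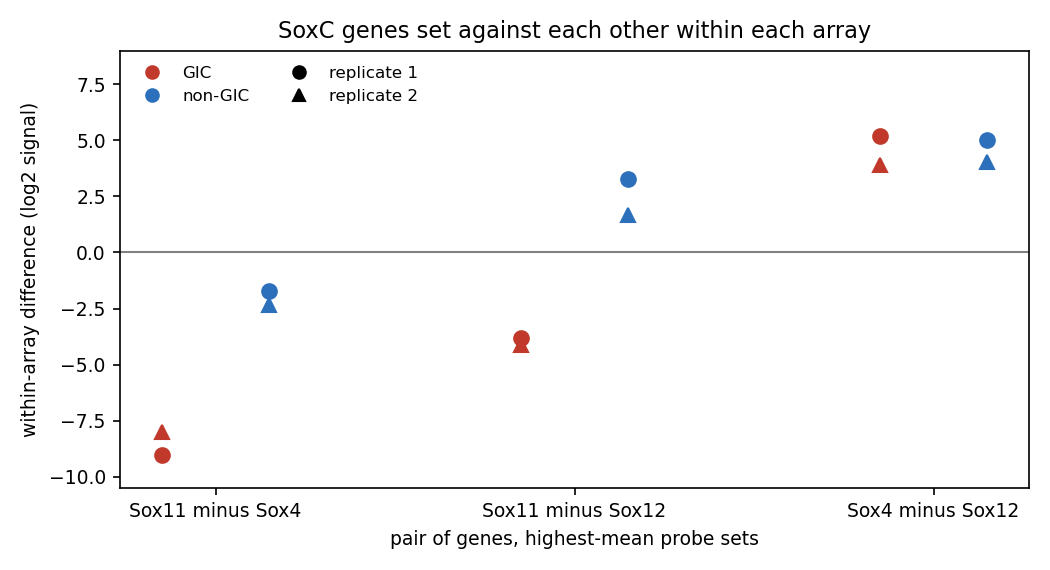
Within-array difference in log2 signal between the leading probe sets of 2 SoxC genes, for 3 pairs, with the 2 GIC arrays left of the 2 non-GIC arrays. The GIC points lie below the non-GIC points for Sox11 minus Sox4 and for Sox11 minus Sox12, and the groups overlap for Sox4 minus Sox12.

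Genes known as SoxC targets from work in chick, mouse or human cells were described next. Of 11 listed, 10 had a probe set and 6 passed the level filter. Their median difference was -0.86, against -0.01 over 13366 tested genes, and 1 of the 6 passed the test, against 1.73% of all tested genes. The member that passed was Map2, a dendritic microtubule protein, with 7.46 and 7.25 in GIC and 9.50 and 9.79 in non-GIC (difference -2.29, limma adjusted p = 0.0217), and all 3 of its tested probe sets passed.

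The other 5 are given so that none is picked by its value. The polycomb methyltransferase Ezh2 had 9.56 and 10.01 in GIC and 11.07 and 11.06 in non-GIC (difference -1.28, limma adjusted p = 0.0805). The stem cell factor Sox2 had a difference of -0.90, the guidance receptor Plxna1 one of -0.83 and Tead2, a transcription factor of the Hippo pathway, one of -0.09. The neuronal tubulin Tubb3 went the other way, with 9.77 and 10.06 in GIC and 7.98 and 9.56 in non-GIC (difference 1.15, limma adjusted p = 0.373). The early neuronal genes Dcx and Neurod1 were under the filter level on all 4 arrays, and Neurod1 had 4.40 and 4.46 in GIC and 4.59 and 4.24 in non-GIC. Nrcam and Pou4f1 were also under it.

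Factors upstream of SoxC genes or partners of their proteins include proneural and POU factors and the TGF-beta pathway. None of the 13 tested passed the threshold, against 1.73% of all tested genes, so the count does not set them apart. Of 13 tested, 7 had a lower mean in GIC, and the median difference was -0.01. The receptor Tgfbr1 had a difference of 0.65 (limma adjusted p = 0.198) and the POU factor Pou3f3 one of -0.57 (limma adjusted p = 0.271). The proneural gene Neurog2 was under the filter level on all arrays.

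Of 13 tested Sox genes outside the SoxC group, 1 passed, against 1.73% of all tested genes. Sox6, a SoxD factor without an activation domain of its own, had 7.28 and 7.09 in GIC and 8.52 and 8.66 in non-GIC (difference -1.41, limma adjusted p = 0.0356). All 4 of its tested probe sets were lower in GIC and 2 of them passed. The median over the 13, which include Sox2, was 0.00.

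Neuronal and progenitor genes had list medians near that of all tested genes. Of 21 tested neuronal differentiation genes, 1 rose and 20 did not pass, against 1.73% past the threshold among all tested genes, with a median difference of -0.10. The gene that rose was Insm1, a zinc finger factor of neuroendocrine and basal progenitor cells. It had 7.61 and 8.01 in GIC and 5.21 and 5.02 in non-GIC (difference 2.69, limma adjusted p = 0.0141). Both non-GIC values lay under the filter level, so Insm1 was tested only through the GIC arrays. Of 15 tested progenitor genes 3 passed, 1 higher and 2 lower in GIC, against the same 1.73%, and the median was -0.04. The intermediate filament Nes fell, with 9.17 and 8.97 in GIC and 11.45 and 10.81 in non-GIC (limma adjusted p = 0.0481). The lipid-binding protein Fabp7 fell too, with 5.23 and 5.23 in GIC and 6.58 and 6.89 in non-GIC (limma adjusted p = 0.0294). Its GIC values were identical and under the filter level, so it was tested only through the non-GIC arrays. The GIC arrays thus added no scatter to its test. The surface protein Cd24a rose, with 12.97 and 12.92 in GIC and 11.81 and 11.64 in non-GIC (limma adjusted p = 0.0384). The calls of Map2, Sox6, Insm1, Nes, Fabp7 and Cd24a were lost when either one of the non-GIC arrays was omitted. When either one of the GIC arrays was omitted, Map2 and Insm1 still passed and the other 4 did not. Nes also missed the threshold without the level filter (adjusted p = 0.0516), with quantile normalization (adjusted p = 0.0502) and in eBayes without a trend (adjusted p = 0.0513).

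**Figure D4:**
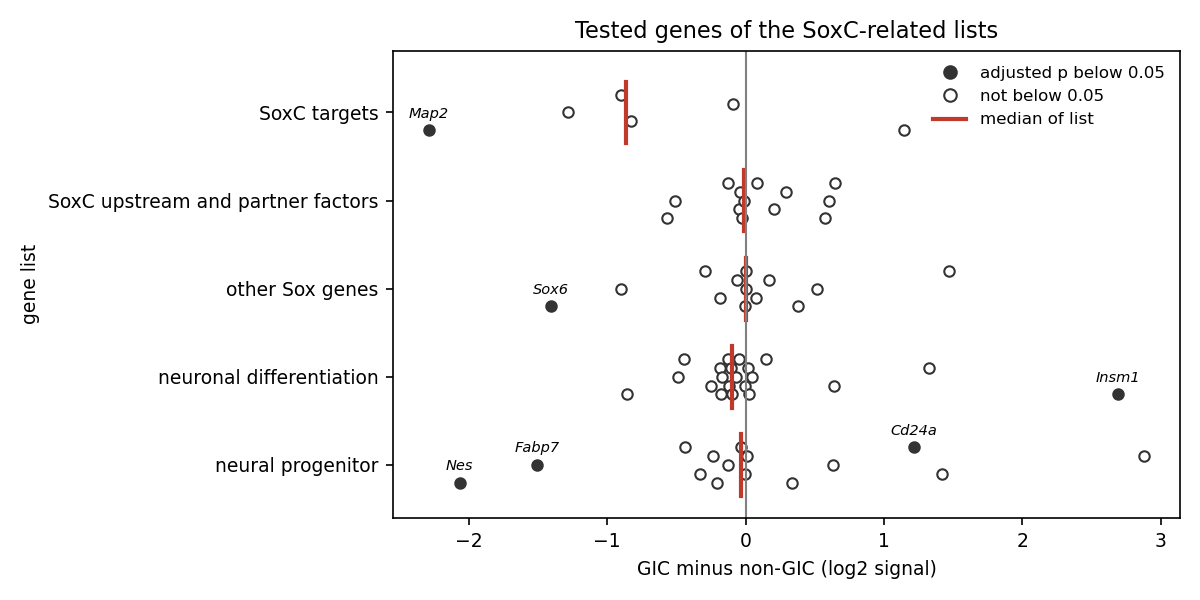
Difference in log2 signal, GIC minus non-GIC, for the tested genes of 5 lists related to SoxC factors, each gene by its probe set with the highest mean, with the list median as a bar. The median of the SoxC target list lies at -0.86, those of the other lists lie between -0.10 and 0.00, and the named genes passed the adjusted threshold.

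Markers of other cell types were read beside Sox11. No tested gene of the astrocyte (7), oligodendrocyte lineage (7), endothelial (3) or mural and fibroblast (6) lists passed on its leading probe set. Among all tested genes 1.73% did, so counts of 0 in lists this short say little. Pdgfra, the receptor of oligodendrocyte progenitors, had 1 of 3 tested probe sets past the threshold, and the endothelial receptor Flt1 had 1 of 4. Of 3 tested microglia and leukocyte genes 1 passed, against 1.73% of all tested genes. It was the lipopolysaccharide co-receptor Cd14 (difference 1.30, limma adjusted p = 0.0401), whose call was lost with any 1 array left out (adjusted p from 0.0765 to 0.235). The leukocyte antigen Ptprc, the endothelial adhesion gene Cdh5 and the oligodendrocyte lineage factor Olig2 were under the filter level on all arrays. The astrocyte list ran from -0.21 to 2.39 with a median of 0.00, the oligodendrocyte lineage list from -0.35 to 2.26 with a median of 0.00, and the endothelial list from -0.16 to 0.92 with a median of -0.06. The genes with the smallest p in each were Clu (2.39) and Fgfr3 (0.87), Pdgfra (2.26) and Ugt8a (0.18), and Flt1 (0.92) and Cldn5 (-0.16). The other 5 astrocyte genes lay between -0.21, the value of Gfap, and 0.19, that of S100b. The mean deviation of the mural and fibroblast list from each gene's own mean was 0.65 for GIC replicate 1 but -0.59 for GIC replicate 2, while the non-GIC arrays had 0.00 and -0.05. Its member Col1a1 had 13.59 and 10.70 in GIC and 13.84 and 14.57 in non-GIC, a difference of -2.06, and Col1a2 had one of 1.26. Rgs5 and Lum of the same list were under the filter level on all arrays. The part of these markers in the SoxC differences was not tested.

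The genes with the profile most like that of each member were taken from 13363 genes. Likeness was measured as the root mean square difference, over the 4 arrays, between the deviations of 2 genes from their own means. It depends on the size of a change, so its values are not comparable between the members. Nearest to Sox11 were the lysosomal protease Ctsc (0.30), the small heat shock protein Hspb8 (0.30), Vat1l (0.34) and the nicotinic receptor chaperone Tmem35a (0.41). The fifth nearest was the actin-associated protein Pdlim1 (0.60). Hspb8 had 5.60 and 5.62 in GIC and 11.03 and 11.71 in non-GIC. Nearest to Sox4 were the sialyltransferase St6gal1 (0.03), the receptor Fgfr2 (0.06) and 0610040B10Rik (0.06), and nearest to Sox12 were the semaphorin Sema3c (0.05), Tubb3 (0.08) and Lonrf3 (0.11). Within 0.5 lay 2247 genes for Sox4, 388 for Sox12 and 4 for Sox11. The genes named for Sox4 and Sox12 are thus the nearest of many with a like profile.

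No fall of the size of that of Sox11 was seen in its nearest tested neighbours on chromosome 12. The 5 nearest tested genes on each side, in the gene order of assembly GRCm38.p6, ran from Id2 to Adi1. None of the 10 passed, where 1.73% of all tested genes did, so that count alone says little. Their differences lay between -0.26 and 0.66 with a median of 0.08. Cmpk2, Colec11 and 4930549C15Rik had low signal, between 5.88 and 6.20, which limits the fall they could show. The neighbours of Sox4 on chromosome 13 did not share its positive difference: 9 of 10 had a lower mean in GIC, and their median was -0.09. None of the 10 passed, against the same 1.73%.

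The neighbours of Sox12 on chromosome 2 did lie higher. Their median difference was 0.74, with 7 of 10 higher in mean in GIC and 1 past the threshold, against 1.1% of all tested genes called higher. That gene was Mcts2, with 10.65 and 11.02 in GIC and 9.35 and 9.26 in non-GIC (difference 1.53, limma adjusted p = 0.0493), and its call was lost with any 1 array left out, with median centring (adjusted p = 0.0545) and without the level filter (adjusted p = 0.0551). Zcchc3, the next tested gene after Sox12, had 8.32 and 8.33 in GIC and 6.63 and 7.55 in non-GIC, and it shared the low value of non-GIC replicate 1 with Sox12. The median deviation of the 10 genes was 0.31 and 0.32 for the GIC arrays, against -0.44 and -0.19 for the non-GIC arrays.

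The wider flanks were described after these values were seen. The 25 tested genes on each side of Sox12 had a median difference of 0.58, with 37 of 50 positive. Beyond Sox12, to the end of chromosome 2, 285 tested genes had a median of 0.26, with 18 past the threshold and higher in GIC (6.32%) and 2 lower (0.702%). Before Sox12 the median was 0.02 over 801 genes, with 10 higher (1.25%) and 4 lower (0.499%). Over all tested genes 1.1% were past it and higher and 0.628% lower. The same flank of 50 genes had a median of 0.01 around Sox11 and -0.11 around Sox4. Genes on a chromosome are not independent samples, and this description carried no test.

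**Figure D5:**
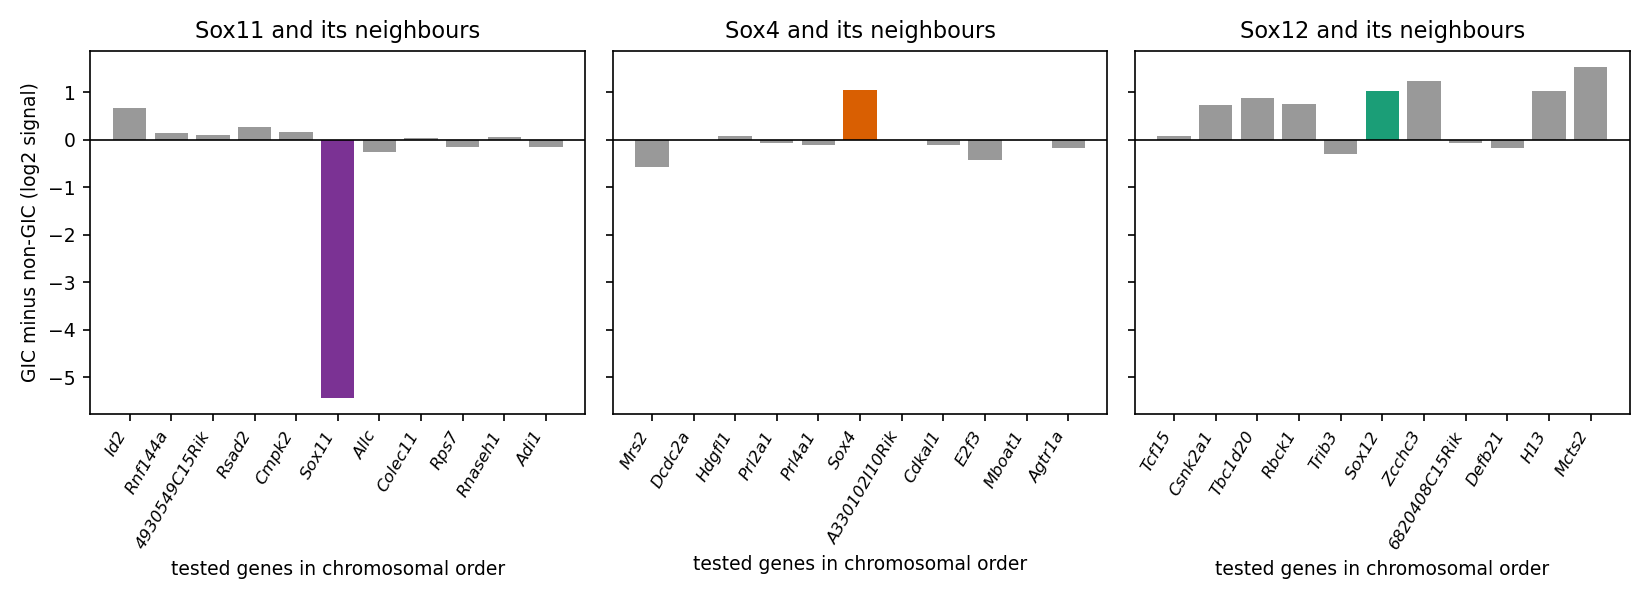
Difference in log2 signal, GIC minus non-GIC, for Sox11, Sox4 and Sox12 (coloured bars) and the 5 nearest tested genes on each side in chromosomal order (grey bars), each gene by its probe set with the highest mean. The Sox11 bar at -5.43 stands alone, the Sox4 bar at 1.06 stands among neighbours between -0.58 and 0.07, and Sox12 at 1.02 stands among neighbours that reach 1.53.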

How the data were processed

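Per the labels' protocols, 5 µg of total RNA from each of 2 GIC and 2 non-GIC samples was biotinylated for Affymetrix arrays. The deposited table holds 1 log2 value per probe set and array. Values of 2.75 to 15.12 gave the log base, and near-equal quantiles show that the authors had normalized the arrays. How they corrected background, summarised probes and normalized is not given in the sources used here. The number of arrays limits the precision.

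Probe sets were named through the platform annotation, and symbols were updated to those of GRCm38.p6 by Entrez identifier (34741 of 34945 with 1 symbol; 932 had several and 9160 none). The 64 control probe sets were left out. A probe set was tested if at least 2 arrays exceeded the 40th percentile (5.97). Limma 3.58.1 in R 4.3.3 (lmFit and trended eBayes, two-sided, with subline as sole term) was run over 27576 probe sets with Benjamini-Hochberg adjustment at 0.05, with 2 residual and 2.77 prior degrees of freedom. It called 437 probe sets. A gene is represented by its probe set with the highest mean. Differences are GIC minus non-GIC.

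Members and lists were chosen with earlier results of these data known. Named were all members, all list genes past the threshold (at most 4 in the lists of neuronal, progenitor and cell type genes) or else the 2 with the smallest p, the 5 genes most like Sox11, the 3 most like Sox4 and Sox12, and neighbours past the threshold. Other genes were named after their values were seen. The procedure was tested on simulated data. Alternatives covered normalization, centring, filter, gene summary, probe set kind, variance model, replicate block and each array left out. A lone remaining array was taken to vary as the other subline does. Plots used matplotlib 3.10.9 (Python 3.11.15).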

Additional observations from a re-analysis of the deposited data

How the results depend on the processing

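Over the scaling, filter, gene summary, probe set kind, variance and block alternatives, the Sox11 difference kept its direction and its call in all 11, with values from -5.46 to -4.45. Sox4 and Sox12 stayed positive in the same alternatives, from 0.87 to 1.08 and from 0.30 to 1.02, and neither was called except Sox4 with crossed replicate numbers. The number of SoxC probe sets past the threshold and lower in GIC lay between 4 and 6. It was 4 with the replicate number as a block, where 1429051_s_at and 1453002_at lost their calls. The deviations of same-numbered arrays correlated at -0.31. With 2 arrays per subline that value does not settle whether the numbers pair the samples. A block with crossed numbers, added after seeing the data, called 2 Sox4 probe sets as higher, with the Sox4 difference at 1.06, and 1066 probe sets in all. The number of all probe sets called was 437 in the fit reported, 49 with the replicate block, 257 with 1 row per gene by the highest mean and 252 with probe sets averaged per gene, where fewer features were tested.

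With each array left out, the differences ranged from -5.51 to -5.35 for Sox11, 0.63 to 1.49 for Sox4 and 0.25 to 1.79 for Sox12. The number of SoxC probe sets called lower ranged from 0 to 5 and called higher from 0 to 2, and of all probe sets from 0 to 433. The contrast of Sox11 with Sox4 ranged from -7.00 to -5.98, that with Sox12 from -7.24 to -5.67, and Sox4 against Sox12 from -0.61 to 0.68, with the sign turned when GIC replicate 1 or non-GIC replicate 2 was omitted; the cause was not tested. Low signal of Sox11 in GIC limits how closely its fold can be read.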
